A study of Mus musculus with 16 samples.

Results

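Cholesterol biosynthesis genes and other targets of the transcription factor SREBP2 were followed across 4 groups of mouse cells. The genes were chosen by symbol, and for each the probe set (the group of probes that measures a gene) with the highest mean over all 16 arrays was used among those that carry only that symbol. Of the 28 genes listed, 27 were found among the 19938 genes measured this way. Acat2, which joins the first acetyl units, was not analysed here. The 27 genes fall into 6 enzymes of the mevalonate steps, 11 enzymes of the squalene and sterol steps, 5 regulators of SREBP, 3 other SREBP targets and 2 sterol efflux pumps.

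RNA was measured on Affymetrix gene arrays in cells that the labels call midbrain dopaminergic neurons. All were of genotype Pitx3GFP/+, with green fluorescent protein (GFP) at 1 allele of Pitx3, whose product is a transcription factor of such neurons, and of strain C57BL/6 x 129/Ola (mixed). On 5 arrays the cells came from induced pluripotent stem cells (iPSCs) differentiated with recombinant human WNT1 and recombinant human DKK3, both secreted proteins of Wnt signalling, and these are called treated. On 5 control arrays the iPSC-derived cells had been differentiated without them. Primary neurons from the ventral midbrain, sorted for GFP, filled 3 arrays at embryonic day E13.5 and 3 arrays at E14.5. Those 3 arrays are technical replicates, so each stage counts as 1 sample and the primary group holds 2. The labels call the iPSC-derived arrays biological replicates without naming separate cultures or lines, so p-values set differences only against the spread between these samples. In the comparisons with primary neurons that spread comes mostly from the iPSC-derived arrays. The primary group, with 2 samples, is assumed to vary like them.

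Cells build cholesterol from acetyl-CoA through mevalonate, farnesyl diphosphate, squalene and lanosterol. When sterols in the endoplasmic reticulum are low, SCAP carries SREBP2 to the Golgi apparatus, where it is cleaved and freed to switch on the enzymes; when sterols are high, INSIG proteins hold SCAP back, and oxysterols activate the LXR receptors, which switch on efflux pumps such as ABCA1. In the brain, cholesterol is made locally because lipoproteins do not cross the blood-brain barrier, and young neurons make much of their own before glia supply it with APOE.

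SREBP binds sterol regulatory elements together with the factor NF-Y, which binds CCAAT boxes, so the promoters of the genes were searched for both. RefSeq promoters of the assembly GRCm38.p6 were found for 21 of the 27 genes, in 29 windows. Fdps, Fdft1, Sqle, Stard4, Scd2 and Abcg1 had no entry. The search covered both strands of the 250 bases before each start, and a gene counted when any of its windows held the letters. CCAAT was present in 18 of 21 genes, including all 14 enzymes with a window, against 38.8% of the 15614 genes of the arrays with a window. By window, 65.5% of those of the 21 genes and 34.5% of those of all genes on the arrays held it. The sterol regulatory element spelled TCACNCCAC stood before 1 gene, Hmgcs1, against 1.2% of all. A looser spelling, TCACNCNA, chosen after the stricter one was found so rarely, stood before 5 genes (Hmgcs1, Msmo1, Nsdhl, Srebf2 and Srebf1), against 9.79% of all. Before 19 of the 21 genes stood the GC box GGGCGG, against 49.3% of all, and before 15 the E-box CANNTG, against 65.8%. Matches of different motifs may overlap, and each match of the strict spelling contains the looser one. These shares describe letters, not bound sites.

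The promoters of 7 genes are printed, from 5′ to 3′ on the strand of the gene and ending at the last base before the start. Capitals mark the CCAAT box, which reads ATTGG on the other strand, and the looser sterol regulatory element. Hmgcs1, Srebf2 and Nsdhl hold both motifs, Idi1 and Cyp51 are among the enzymes that were lowest against primary neurons, Mvd had the largest difference between treated and control cells, and Abca1 had the largest rise and holds neither motif here. They lie at chr13:119690101-119690350 (Hmgcs1, plus strand), chr15:82147019-82147268 (Srebf2, plus strand), chrX:72918271-72918520 (Nsdhl, plus strand), chr13:8885446-8885605 (Idi1, plus strand), chr8:122443423-122443582 (Mvd, minus strand), chr5:4104698-4104857 (Cyp51, minus strand) and chr4:53159896-53160055 (Abca1, minus strand), in GRCm38.p6.
Hmgcs1: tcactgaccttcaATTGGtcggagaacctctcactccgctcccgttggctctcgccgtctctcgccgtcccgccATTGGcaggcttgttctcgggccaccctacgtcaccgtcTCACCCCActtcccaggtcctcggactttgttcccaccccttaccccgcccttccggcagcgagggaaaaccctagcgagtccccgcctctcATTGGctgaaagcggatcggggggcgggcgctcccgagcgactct
Srebf2: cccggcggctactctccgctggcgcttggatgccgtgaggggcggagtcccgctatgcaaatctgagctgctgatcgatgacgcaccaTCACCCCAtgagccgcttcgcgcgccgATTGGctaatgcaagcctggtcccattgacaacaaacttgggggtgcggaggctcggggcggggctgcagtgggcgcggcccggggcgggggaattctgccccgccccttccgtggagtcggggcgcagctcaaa
Nsdhl: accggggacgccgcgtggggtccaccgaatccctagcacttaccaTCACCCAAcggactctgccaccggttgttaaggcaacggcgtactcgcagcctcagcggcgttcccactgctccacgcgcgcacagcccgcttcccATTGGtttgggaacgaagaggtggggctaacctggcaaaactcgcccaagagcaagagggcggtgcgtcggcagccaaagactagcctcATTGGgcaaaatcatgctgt
Idi1: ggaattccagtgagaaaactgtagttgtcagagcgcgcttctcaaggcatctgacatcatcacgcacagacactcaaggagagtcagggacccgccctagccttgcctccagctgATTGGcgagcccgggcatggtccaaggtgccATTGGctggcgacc
Mvd: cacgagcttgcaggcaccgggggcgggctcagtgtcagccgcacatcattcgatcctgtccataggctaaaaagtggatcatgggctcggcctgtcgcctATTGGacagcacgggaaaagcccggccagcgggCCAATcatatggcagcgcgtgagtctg
Cyp51: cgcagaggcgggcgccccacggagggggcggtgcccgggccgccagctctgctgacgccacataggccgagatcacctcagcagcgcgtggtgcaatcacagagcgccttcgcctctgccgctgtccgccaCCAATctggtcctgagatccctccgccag
Abca1: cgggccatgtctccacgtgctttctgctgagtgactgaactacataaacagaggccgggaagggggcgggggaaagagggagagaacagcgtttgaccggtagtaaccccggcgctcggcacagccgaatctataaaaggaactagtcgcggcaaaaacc
The looser element began 137 bases before the start of Hmgcs1, 162 before that of Srebf2 and 205 before that of Nsdhl. A CCAAT box began 45 bases before the start of both Hmgcs1 and Idi1 and 29 bases before that of Cyp51.

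The samples differed in much more than sterol genes, and these values belong beside all that follows. Mean levels of 12 neuron markers, led by Gap43 and Tubb3, were 10.40 to 10.69 on the primary arrays (log2 scale, as for all levels here) and 6.11 to 8.37 on the iPSC-derived arrays, with all 12 genes below primary on every iPSC-derived array. Of 11 dopaminergic markers, led by Nr4a2 and Th, 9 were likewise below primary on every such array, and Pitx3 itself lay at 5.60 to 6.17 against 7.16 to 7.74. The arrays numbered 5 of both groups stood apart, with neuron marker means of 8.37 and 8.05. Among markers of other cells, 9 of 12 for astrocytes and radial glia and 9 of 10 for fibroblasts were above primary on all 10 iPSC-derived arrays. The astrocyte and radial glia mean was 8.67 to 9.44 there and 6.55 to 7.05 in primary neurons; the fibroblast mean was 8.92 to 9.89 and 5.66 to 6.01. Choroid plexus markers averaged 7.24 to 8.45 against 6.04 to 6.33, and endoderm markers 7.05 to 7.38 against 5.97 to 6.25. Only 4 of 8 choroid plexus and 2 of 9 endoderm markers were above primary on all 10 iPSC-derived arrays. In each of these lists 1 gene was below primary on all of them. Ttr, counted in both lists, read 12.58 to 13.24 on the iPSC-derived arrays and 5.70 to 6.94 in primary neurons. On the iPSC-derived arrays numbered 1 to 4, proliferation markers averaged 8.00 to 9.11 and pluripotency markers 7.50 to 8.63, against 6.18 to 6.45 and 5.78 to 6.15 in primary neurons. On the arrays numbered 5 proliferation markers averaged 6.61 and 6.52 and pluripotency markers 5.83 and 5.91. Oligodendrocyte lineage markers averaged 6.21 to 6.81 against 5.99 to 6.11, and microglia markers 5.06 to 5.50 against 5.21 to 5.79. The part of these differences in the sterol gene results was not tested. In such mixed samples, fewer cells of a type and less RNA per cell cannot be told apart.

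The cholesterol enzymes were lower in control iPSC-derived cells than in primary neurons from almost the first step to the last. With the limma fit over all genes and Benjamini-Hochberg adjusted p under 0.05 as the threshold, 16 of 17 enzymes fell and 0 rose, with a median difference of -1.21 on the log2 scale. These counts depend on the list of enzymes. Lbr, a sterol reductase kept outside it, was higher by 0.85 (SE 0.27; limma, adjusted p = 0.0258). Over all 19938 genes, 22.5% were called lower and 19.3% higher in this comparison, and the median was -0.11. On 13 of the 17 enzymes all 10 iPSC-derived arrays lay below all 6 primary arrays, a pattern shown by 12.7% of all genes; 14.1% of all genes showed the opposite pattern. With all 27 genes counted, 18 fell, 3 rose and 6 were not called, with a median of -0.99.

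**Figure D1:**
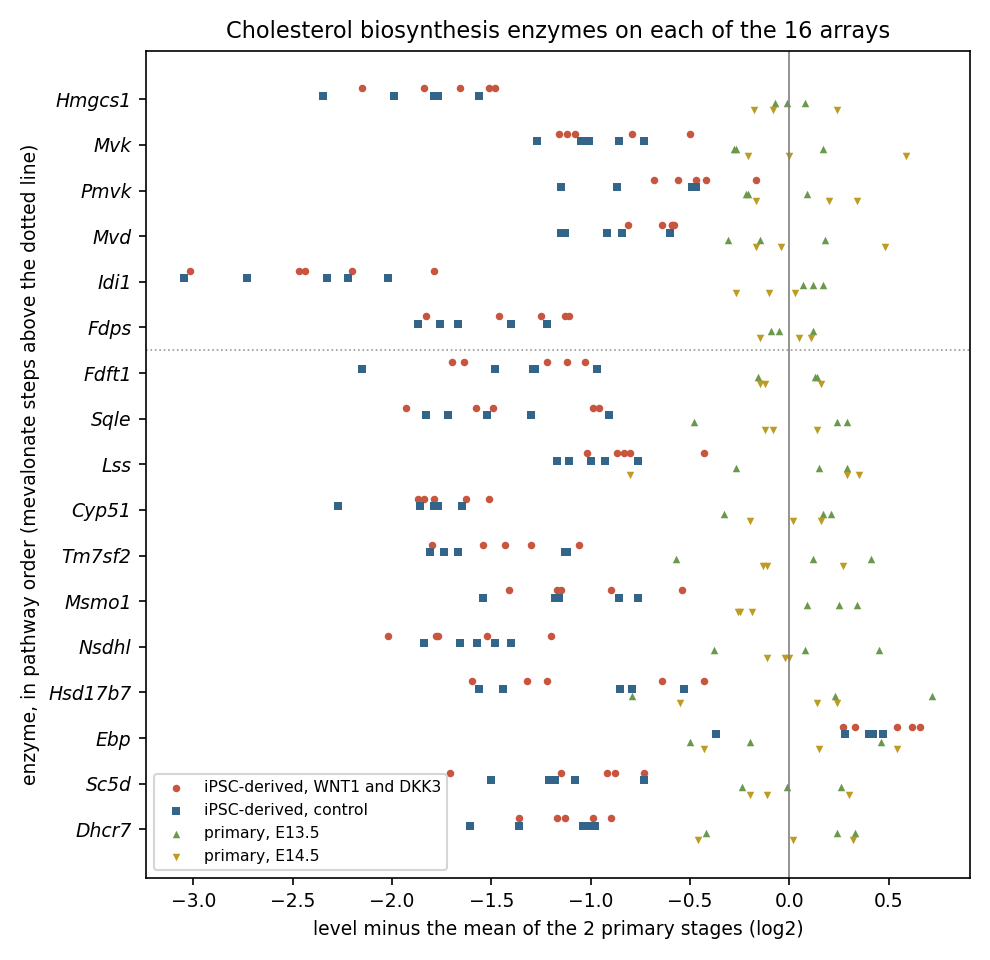
Level of each of 17 cholesterol biosynthesis enzymes on each of 16 arrays, minus the mean of the 2 primary stages (x axis, log2; y axis, enzymes in pathway order). Each point is 1 array. The 10 iPSC-derived arrays lie left of all 6 primary arrays for 13 enzymes and mix with them for Pmvk, Lss, Hsd17b7 and Ebp.

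The mevalonate steps run from HMG-CoA synthase to farnesyl diphosphate synthase. Hmgcs1, which encodes the cytosolic HMG-CoA synthase that makes HMG-CoA and carries the strict sterol element printed above, had levels of 7.91, 8.27, 8.47, 8.49 and 8.70 on the control arrays and 8.42, 8.11, 8.75, 8.60 and 8.78 on the treated arrays. The primary levels were 10.25, 10.34 and 10.19 at E13.5 and 10.18, 10.08 and 10.50 at E14.5. All iPSC-derived arrays lay more than 1 log2 unit below all primary arrays, while treated and control overlapped. Control minus primary was -1.89 (SE 0.21, 3.70-fold lower; limma, adjusted p = 1.8e-05), and treated minus primary was -1.73 (SE 0.21, adjusted p = 3.8e-05).

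Idi1, the isomerase that makes the activated isoprene unit for chain growth, had the largest difference of all 17 enzymes. Control levels were 6.09, 6.80, 6.49, 6.60 and 5.77, and treated levels were 5.80, 7.03, 6.38, 6.62 and 6.35. At E13.5 the levels were 8.89, 8.99 and 8.94, and at E14.5 they were 8.85, 8.72 and 8.55. The iPSC-derived arrays spread over more than 1 log2 unit, and even the highest stayed below the lowest primary array. Control minus primary was -2.47 (SE 0.31, 5.55-fold lower; limma, adjusted p = 4.2e-05), and treated minus primary was -2.39 (SE 0.31, adjusted p = 5.7e-05). A further probe set listed for Idi1 gave 5.29 to 6.74 on the iPSC-derived arrays and 8.35 to 8.87 on the primary arrays, also without overlap. Whether either probe set also measures a near-identical copy of the gene was not tested.

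Fdps, which builds farnesyl diphosphate, the branch point to sterols and to protein prenylation, ranged from 6.75 to 7.51 on the iPSC-derived arrays and from 8.47 to 8.74 on the primary arrays, with a control difference of -1.58 (SE 0.21). The kinases and the decarboxylase between these steps moved less. Mvk, mevalonate kinase, differed by -0.98 (SE 0.19) and Mvd, mevalonate diphosphate decarboxylase, by -0.92 (SE 0.14) in control cells. Pmvk, phosphomevalonate kinase, had the smallest called difference, -0.70 (SE 0.20; limma, adjusted p = 0.013), with control levels of 7.44, 6.77, 7.05, 7.43 and 7.45 and primary levels from 7.70 to 8.26. On the treated arrays Pmvk reached 7.50, 7.24, 7.45, 7.36 and 7.75, so that 1 treated array overlapped the primary range. Its treated difference of -0.46 (SE 0.20) was not called (adjusted p = 0.0762). Without treated array 5 that difference was -0.53 and passed (adjusted p = 0.0408). In all it passed under 5 of 15 alternatives. Among these were array medians subtracted (-0.67; limma, adjusted p = 0.0112) and quantile normalization again (-0.58, adjusted p = 0.0439). Another was a fit of treated and primary samples alone (-0.46, adjusted p = 0.0474). With E13.5 alone as the primary sample, the control difference of Pmvk was -0.58 and no longer passed (adjusted p = 0.127).

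In the squalene and sterol steps, Fdft1 joins farnesyl units to squalene, Sqle adds the oxygen and Lss closes the ring to lanosterol. Control minus primary was -1.43 for Fdft1 (SE 0.27), -1.46 for Sqle (SE 0.28) and -0.99 for Lss (SE 0.15). Fdft1 levels were 8.17 to 9.35 on the iPSC-derived arrays and 10.16 to 10.48 on the primary arrays, and its other probe set showed 7.50 to 8.74 against 9.46 to 10.32. Sqle ran from 7.63 to 8.65 against 9.08 to 9.85. Both genes kept the groups apart on every array. Lss did not, because 1 primary array at E14.5 read 6.21 beside 7.30 and 7.36 on the other two, within the iPSC-derived range of 5.84 to 6.58.

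Cyp51, the lanosterol demethylase, gave the smallest adjusted p of the 27 genes in control minus primary. Its control levels were 7.14, 7.62, 7.64, 7.76 and 7.55 and its treated levels 7.54, 7.78, 7.57, 7.90 and 7.62. The primary levels were 9.62, 9.58 and 9.08 at E13.5 and 9.21, 9.43 and 9.57 at E14.5. More than 1 log2 unit separated the highest iPSC-derived array from the lowest primary array. The control difference was -1.87 (SE 0.16, 3.66-fold lower; limma, adjusted p = 1.7e-06) and the treated difference -1.73 (SE 0.16, adjusted p = 3.3e-06).

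The enzymes that trim lanosterol to cholesterol followed. Nsdhl, a sterol dehydrogenase of C4 demethylation, differed by -1.59 in control cells (SE 0.19), Tm7sf2, a sterol reductase, by -1.49 (SE 0.22), and Msmo1, the C4 methyl oxidase, by -1.10 (SE 0.24). Dhcr7, the reductase mutated in Smith-Lemli-Opitz syndrome, differed by -1.21 (SE 0.18), and Sc5d, the desaturase before it, by -1.14 (SE 0.24). These 5 genes had no overlap between iPSC-derived and primary arrays. Hsd17b7, the ketosteroid reductase, differed by -1.03 (SE 0.33, adjusted p = 0.0239), and its primary levels of 8.11, 8.60 and 7.09 at E13.5 and 8.02, 7.33 and 8.12 at E14.5 reached into the iPSC-derived range of 6.28 to 7.45. With either stage alone as the primary sample, Hsd17b7 was not called (adjusted p = 0.0954 with E13.5 and 0.134 with E14.5), and Msmo1 was not called with E14.5 alone (-0.87, adjusted p = 0.0643).

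Ebp, the sterol isomerase, was the exception. Its control levels were 7.00, 6.98, 7.05, 6.86 and 6.21, its treated levels 6.85, 7.24, 7.20, 7.12 and 6.91, and its primary levels 7.04, 6.08 and 6.38 at E13.5 and 6.15, 7.12 and 6.73 at E14.5. The primary arrays covered nearly the whole range, and all groups overlapped. Control minus primary was 0.24 (SE 0.20; limma, adjusted p = 0.362) and treated minus primary was 0.48 (SE 0.20, adjusted p = 0.0763). Without control array 5, its lowest, the control difference was 0.39 and passed (adjusted p = 0.0348).

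**Figure D2:**
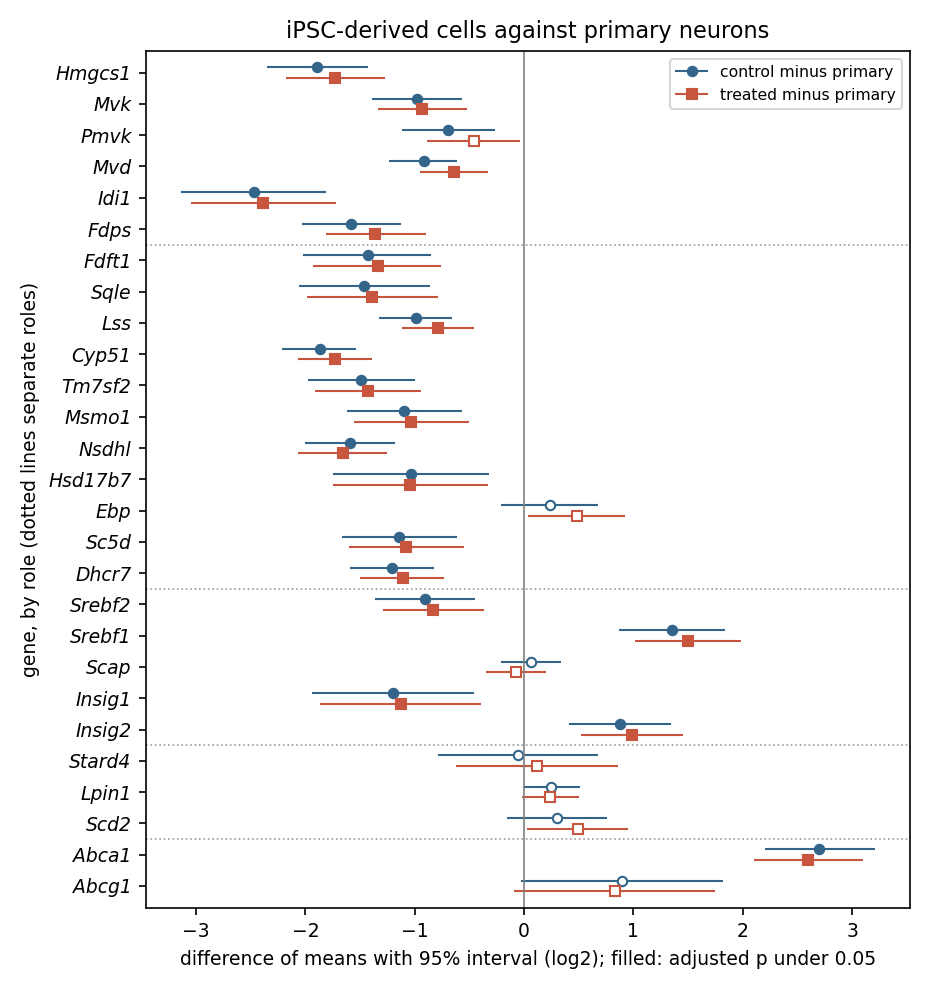
Differences of control (circles) and treated (squares) cells from primary neurons for 27 genes (x axis, log2; y axis, genes by role), with 95% intervals from limma and filled symbols for adjusted p under 0.05. Both comparisons use the same 2 primary samples. Filled symbols lie left of 0 for the enzymes other than Ebp (and, in treated cells, Pmvk), for Srebf2 and for Insig1, and right of 0 for Srebf1, Insig2 and Abca1.

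The regulators split. Srebf2, which encodes SREBP2, had levels of 8.89, 8.48, 8.85, 9.10 and 8.28 in control cells and 8.76, 8.66, 8.94, 9.06 and 8.56 in treated cells, against 9.82, 9.76 and 9.81 at E13.5 and 9.32, 9.37 and 9.69 at E14.5. All iPSC-derived arrays lay below all primary arrays, with the E14.5 arrays nearer to them. The control difference was -0.91 (SE 0.21; limma, adjusted p = 0.00443) and the treated difference -0.83 (SE 0.21, adjusted p = 0.00756). With E14.5 alone as the primary sample neither was called (adjusted p = 0.073 and 0.105).

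Srebf1, which encodes SREBP1 and is itself switched on by LXR, went the other way. Its control levels of 8.29, 7.83, 8.37, 8.57 and 7.99 and treated levels of 8.32, 8.00, 8.47, 8.82 and 8.16 were all above the primary levels of 7.00, 6.83 and 6.94 at E13.5 and 6.66, 6.58 and 7.12 at E14.5. The control difference was 1.35 (SE 0.22, 2.56-fold higher; limma, adjusted p = 4.0e-04) and the treated difference 1.50 (SE 0.22, adjusted p = 1.9e-04).

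The 2 INSIG genes, which encode the proteins that hold SCAP in the endoplasmic reticulum, also moved apart. Insig1, an SREBP target in its own right, fell from 9.65 to 10.49 in primary neurons to 8.40 to 9.45 in control and 8.24 to 9.55 in treated cells, without overlap. Its control difference was -1.20 (SE 0.34; limma, adjusted p = 0.0136), and its treated difference was -1.13 (SE 0.34, adjusted p = 0.0184). With 1 stage alone as the primary sample Insig1 was not called, at adjusted p of 0.0656 to 0.117. Insig2 was higher by 0.88 in control cells (SE 0.21, adjusted p = 0.00607) and by 0.99 in treated cells (SE 0.21, adjusted p = 0.00292). Its control levels were 8.11, 7.82, 7.67, 7.93 and 7.41, its treated levels 7.90, 7.67, 7.94, 8.40 and 7.58, and its primary levels 6.68, 6.60 and 7.56 at E13.5 and 6.18, 6.87 and 7.58 at E14.5. The highest primary arrays reached the lowest control array, so the groups overlapped there. With E13.5 alone the control difference of Insig2, 0.84, was not called (adjusted p = 0.0552). Scap, the escort protein, showed differences of 0.066 (SE 0.13) in control and -0.077 (SE 0.13) in treated cells, with 95% intervals of -0.21 to 0.34 and -0.35 to 0.20. The sign of the Scap difference changed with the scaling and with the stage used.

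None of the other SREBP targets was called in either comparison with primary neurons. Stard4, a sterol carrier, differed by -0.055 in control cells (SE 0.34) and by 0.12 in treated cells (SE 0.34), and its sign changed with the scaling and with single arrays. Lpin1, a phosphatidate phosphatase, differed by 0.25 and 0.24 (SE 0.12 for both). Scd2, a stearoyl-CoA desaturase of brain and embryo, differed by 0.30 and 0.49 (SE 0.21 for both), and without treated array 5 its treated difference of 0.57 passed (adjusted p = 0.0454).

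Of the sterol efflux pumps, Abca1, which hands cholesterol to apolipoproteins, rose more than any other gene of the 27. Control levels were 8.59, 9.01, 8.98, 8.63 and 9.41, and treated levels were 8.95, 8.57, 9.02, 8.43 and 9.12. Primary levels were 6.14, 6.16 and 6.11 at E13.5 and 5.79, 6.68 and 6.43 at E14.5. Every iPSC-derived array was more than 1 log2 unit above every primary array. Control minus primary was 2.70 (SE 0.23, 6.52-fold higher; limma, adjusted p = 2.2e-06) and treated minus primary 2.60 (SE 0.23, adjusted p = 3.1e-06). Abcg1, its partner for lipoprotein acceptors, ranged from 7.46 to 8.95 on iPSC-derived arrays and from 6.98 to 7.55 on primary arrays, and was not called (0.90, SE 0.42, adjusted p = 0.106 in control; 0.83, SE 0.42, adjusted p = 0.134 in treated cells).

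Treated cells compared with the same primary samples gave 17 genes lower, 3 higher and 7 not called, where 21.3% of all genes were lower and 19.9% higher. The median was -0.93 over the 27 genes and -0.088 over all genes, and 15 of 17 enzymes fell. Since these values and those of control cells rest on the same 2 primary samples, they are given side by side and not as a repeat. Both splits of calls over all genes depended on the scale. With each array's median over the 19938 genes subtracted (6.37 to 6.44 on iPSC-derived and 6.17 to 6.25 on primary arrays), 3046 genes were higher and 8833 lower in control cells (3855 and 4491 as deposited), and 3059 and 8787 in treated cells (3960 and 4241 as deposited). That step moved the median of all genes from -0.11 to -0.30 in control cells, and 18 of the 27 genes were still lower and 3 higher.

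The median enzyme lay below the primary mean on each of the 10 iPSC-derived arrays. As the median over 17 enzymes of the level minus the primary mean, treated arrays 1 to 5 gave -1.60, -1.15, -1.12, -0.90 and -1.22, and control arrays 1 to 5 gave -1.29, -1.44, -1.13, -0.97 and -1.53. The primary arrays lay between -0.24 and 0.20. The arrays numbered 5, with the highest neuron markers of the iPSC-derived cells, were within or below the range of the other arrays. Leaving out both arrays numbered 5 kept 16 enzymes lower in control cells, with a median of -1.25. Their neuron marker means of 8.37 and 8.05 were still below those of the primary arrays, 10.40 to 10.69.

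**Figure D3:**
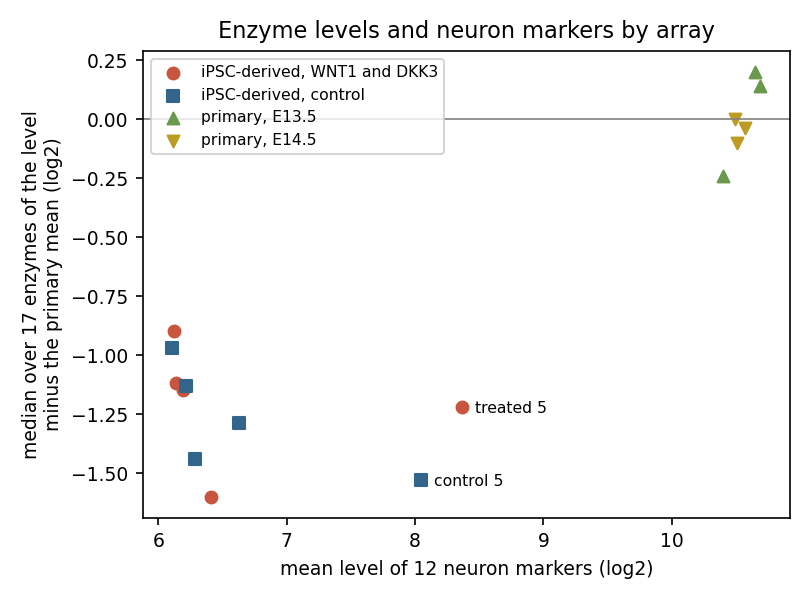
Median over 17 enzymes of the level minus the primary mean (y axis, log2) against the mean level of 12 neuron markers (x axis, log2), 1 point per array. The arrays numbered 5 lie at neuron marker means of 8.37 (treated) and 8.05 (control) and at enzyme medians of -1.22 and -1.53, beside the other iPSC-derived arrays in height.

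Single enzymes moved differently on the arrays numbered 5. Hmgcs1, at 8.78 and 8.70, and Mvk, at 7.23 and 7.00, were higher there than on arrays 1 to 4 of their group (up to 8.75 and 8.49 for Hmgcs1, up to 6.94 and 6.87 for Mvk). Pmvk (7.75 and 7.45) and Tm7sf2 (6.82 and 6.76) were also highest there. Each array numbered 5 was thus the highest of its group for 4 of 17 enzymes. Among all genes it was the highest for 30.8% in treated and 24.2% in control arrays. Fdft1 on control array 5, at 8.17, Msmo1 on both (7.79 and 7.66) and Ebp on control array 5 were lower than on arrays 1 to 4. Control array 5 was the lowest of the 5 controls for 10 of 17 enzymes, while it was the lowest for 28.3% of all genes. Treated array 1 was the lowest of its 5 for 11 of 17 enzymes, and for 17.2% of all genes. The arrays numbered 4 were the highest of their group for 13 of the 27 genes in both groups, against 23.9% of all genes in treated and 19.9% in control arrays. Over the 27 genes the median SD between arrays was 0.30 in both iPSC-derived groups, where it was 0.19 over all genes.

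WNT1 and DKK3 moved none of these genes past the threshold. In treated minus control, limma called 0 of 27, and of all genes 0% higher and 0% lower. At an unadjusted p under 0.05 there were 1 of the 27 genes and 300 of 19938. Chance alone would give a share of about 0.05 of all genes, so 300 is fewer than chance gives. The cause of this was not tested. With the replicate numbers as a block in the fit, these counts were 2 and 834. Values of 21 of the 27 genes were positive, as were 11288 of all 19938, and the medians were 0.085 and 0.017. Without control array 5 the median was 0.016 with 15 positive, and without treated array 4 it was 0.018 with 17 positive. No gene of the 27 had all treated arrays above or all below the control arrays, a pattern that 0.181% and 0.0953% of all genes showed.

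Mvd came nearest to a difference. Its treated levels were 6.77, 6.99, 7.00, 6.94 and 6.99 and its control levels 6.98, 6.45, 6.66, 6.74 and 6.43. All 5 treated arrays read higher than 4 of the 5 controls, while control array 1 lay among them. The difference was 0.29 (SE 0.11, 95% interval 0.041 to 0.53) with a limma adjusted p of 1. The next largest values were 0.25 for Ebp (SE 0.16, interval -0.11 to 0.60), 0.23 for Pmvk (SE 0.15, interval -0.099 to 0.57), 0.23 for Fdps (SE 0.16, interval -0.14 to 0.59) and 0.20 for Lss (SE 0.12, interval -0.06 to 0.47). For Srebf2 the value was 0.076 (interval -0.28 to 0.43) and for Abca1 -0.10 (interval -0.51 to 0.30). The intervals of the enzymes differed in width, from that of Mvd, the narrowest, to that of Hsd17b7, the widest at -0.58 to 0.56.

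**Figure D4:**
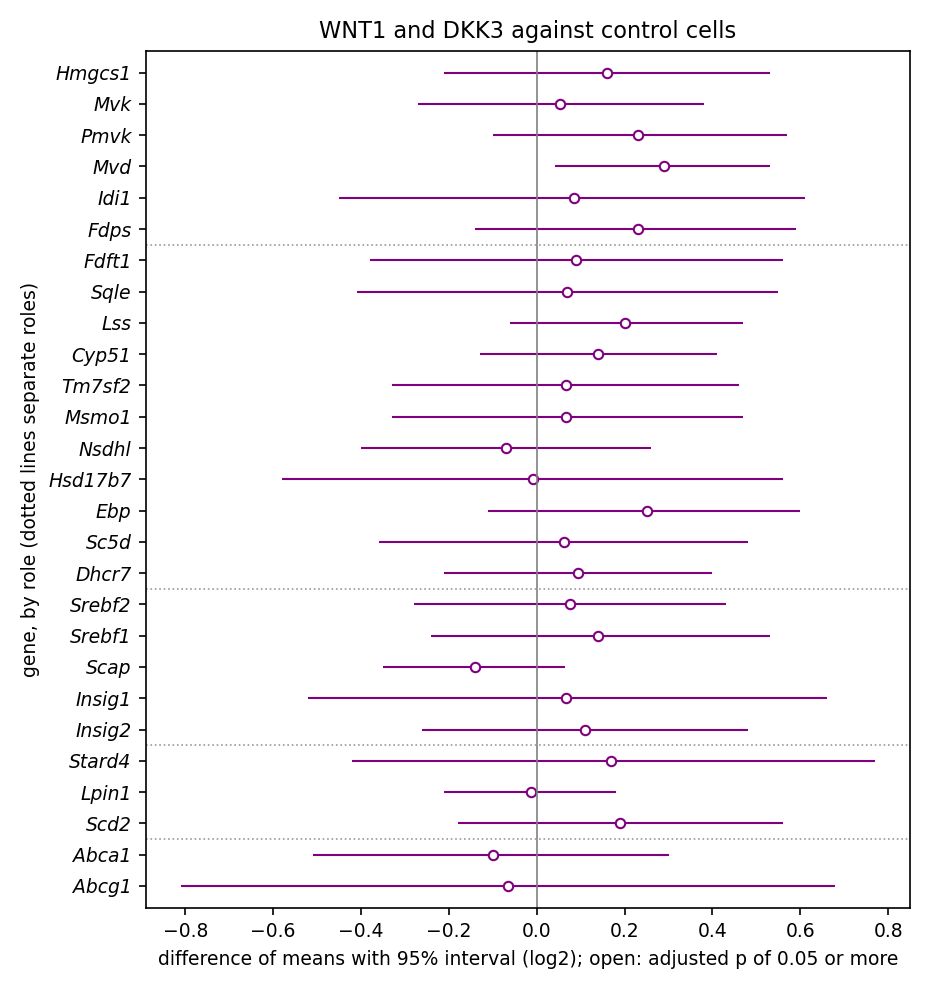
Treated minus control for 27 genes (x axis, log2; y axis, genes by role), with 95% intervals from limma over 5 arrays a group. No adjusted p is under 0.05, and the interval of Mvd, 0.041 to 0.53, is the only one that leaves out 0.

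Between the primary stages no gene of the 27 met the rule used there, a mean difference of at least 1 with arrays that do not overlap, which 0.176% of all genes met as higher and 0.0652% as lower at E14.5. Differences of E14.5 minus E13.5 ran from -0.46 for Msmo1 to 0.26 for Scap, with a median of -0.071. Msmo1 read 9.29, 9.45 and 9.54 at E13.5 and 8.94, 9.01 and 8.95 at E14.5, and Srebf2 differed by -0.33. Both had non-overlapping technical arrays, which show only how well the RNA of 1 sample per stage was measured, and no test was possible.

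Other genes of sterol and lipid handling, listed by pathway with earlier results of these data known, differed in direction from list to list. Their counts stand beside 19.3% of all genes higher and 22.5% lower in control cells, and 19.9% and 21.3% in treated cells. Of 14 other sterol genes, 8 were higher in control cells than in primary neurons, 1 was lower and 5 were not called, with a median of 0.70. Tmem97, an SREBP-controlled binder of the sterol transporter NPC1, was higher by 1.53 (SE 0.33; limma, adjusted p = 0.00283), and Npc2, the lysosomal sterol carrier, by 1.00 (SE 0.13, adjusted p = 4.9e-05). Lrp8, a neuronal receptor for APOE and reelin, differed by -1.01 (SE 0.26, adjusted p = 0.00795). In treated cells the counts were again 8 higher and 1 lower, with Tmem97 at 1.60 (SE 0.33), Lrp8 at -1.06 (SE 0.26) and Lbr, a sterol reductase of the nuclear envelope, at 1.04 (SE 0.27, adjusted p = 0.00918). With E13.5 alone as the primary sample, Lrp8 was not called (adjusted p = 0.0697 in control and 0.0595 in treated cells), nor was Lbr in treated cells (adjusted p = 0.0945).

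In the isoprenoid branch, which leads to ubiquinone, dolichol and prenyl groups, 1 of 11 genes was higher and 3 were lower in control cells, with a median of -0.085, and so few calls do not set the list apart from all genes. Pdss2, of the ubiquinone side chain, differed by -0.76 (SE 0.15; limma, adjusted p = 0.00172), Rabggta, of Rab prenylation, by -0.52 (SE 0.18, adjusted p = 0.0381) and Nus1, of dolichol synthesis, by 0.53 without a call (SE 0.25, adjusted p = 0.108). Leaving out control array 2, control array 5 or both arrays numbered 5 ended the call of Rabggta (limma, adjusted p = 0.0699, 0.0627 and 0.0609). With E13.5 or E14.5 alone as the primary sample, Rabggta differed by -0.59 and -0.46. Leaving out control array 2 brought a call for Nus1 (0.67, adjusted p = 0.0329). In treated cells 1 gene was higher and 0 lower; Nus1 passed at 0.71 (SE 0.25, adjusted p = 0.0407), and Rabggta at -0.43 and Pdss2 at -0.39 did not (adjusted p = 0.0826 and 0.0588). The call of Nus1 was lost without any 1 of treated arrays 1 to 4, at adjusted p of 0.052 to 0.0743. It was also lost with array medians subtracted (0.50; limma, adjusted p = 0.105). With E13.5 or E14.5 alone as the primary sample, Nus1 differed by 0.90 and 0.52. Rabggta passed without treated array 4 (-0.53, adjusted p = 0.0214). With array medians subtracted, Rabggta and Pdss2 both passed (-0.63 and -0.60, adjusted p = 0.0108 and 0.00687).

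Fatty acid synthesis, driven more by SREBP1, was mixed, with 5 of 19 genes higher and 4 lower in control cells and a median of -0.20, shares near those of all genes. The largest differences were upward: Thrsp, a lipogenic nuclear protein, by 2.91 (SE 0.27; limma, adjusted p = 4.4e-06), Elovl1, an elongase of very long fatty acids, by 1.98 (SE 0.21, adjusted p = 1.1e-05) and Scd1, a stearoyl-CoA desaturase, by 1.47 (SE 0.39, adjusted p = 0.00914). Treated cells gave 5 higher and 3 lower, with 2.85 for Thrsp, 1.96 for Elovl1 and 1.59 for Scd1. With E13.5 alone as the primary sample, Scd1 was not called (adjusted p = 0.0793 in control and 0.0593 in treated cells). Among the lower genes, named after their values were seen, were core enzymes of fatty acid synthesis. Fasn, fatty acid synthase, differed by -1.27 in control cells (SE 0.16; limma, adjusted p = 5.2e-05) and by -1.23 in treated cells (SE 0.16, adjusted p = 6.7e-05). Acaca, acetyl-CoA carboxylase, differed by -1.01 (SE 0.12, adjusted p = 2.7e-05) and -0.93 (SE 0.12, adjusted p = 5.0e-05). Both had all 10 iPSC-derived arrays below all 6 primary arrays, with Fasn at 7.62 to 8.25 against 8.95 to 9.27 and Acaca at 7.37 to 7.80 against 8.26 to 8.78. Elovl6, an elongase of long fatty acids, differed by -0.92 (SE 0.28, adjusted p = 0.0209) and -0.78 (SE 0.28, adjusted p = 0.0441). With either embryonic age alone as the primary sample Elovl6 was not called (adjusted p = 0.0807 and 0.132 in control and 0.131 and 0.209 in treated cells, for E13.5 and E14.5). Its treated call was also lost with 2 groups in the fit (adjusted p = 0.0639) and without treated replicate 1, 3, 4 or 5 (adjusted p = 0.0777, 0.0697, 0.0673 and 0.0679).

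LXR receptors and targets leaned the way of Abca1, with 6 of 11 higher and 1 lower in control cells and a median of 1.25. The 1 lower gene, named after its value was seen, was Abcg4, at -1.27 (SE 0.18; limma, adjusted p = 1.5e-04). For Abcg4 all 10 iPSC-derived arrays lay below all 6 primary arrays, and its treated difference was -1.17 (SE 0.18). Apod, Pltp and Apoe, which encode a lipocalin, a phospholipid transfer protein and the main apolipoprotein of glia, were higher by 4.38 (SE 0.26; limma, adjusted p = 1.3e-07), 4.20 (SE 0.20, adjusted p = 2.2e-08) and 4.03 (SE 0.21, adjusted p = 4.8e-08). In treated cells 6 were higher and 2 lower, with 4.13, 4.10 and 4.05 for the same 3 genes. Apoe is abundant in glia, whose markers were also higher on these arrays. The part of glia and of other cells was not tested for any gene of this list. In treated minus control, limma called 0 genes of each of these 4 lists.

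**Figure D5:**
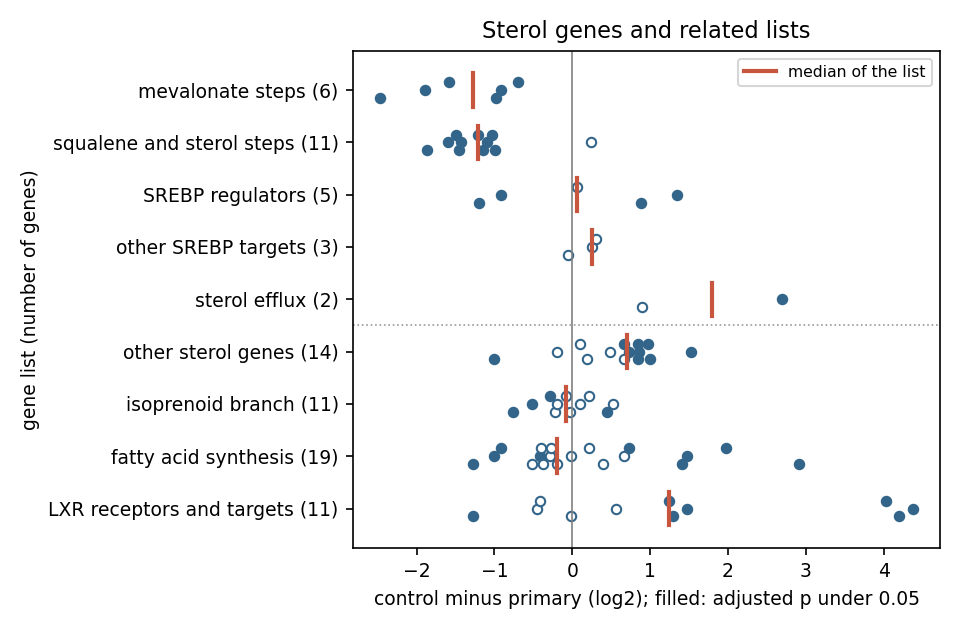
Control minus primary (x axis, log2) for each gene of the 5 roles and of 4 related lists (y axis, number of genes in brackets), 1 circle per gene, filled for adjusted p under 0.05, with the median of each list as a bar. The medians are -1.28 for the mevalonate steps and -1.21 for the squalene and sterol steps, and 0.70 for other sterol genes and 1.25 for LXR receptors and targets.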

How the data were processed

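The data were log2 expression values of 35556 probe sets on 16 arrays, as deposited by the authors. The submitters' processing notes name RMA and Affymetrix Expression Console 1.2 but not their steps. A common normalization run of all arrays is not stated. Per the labels' protocols, small amounts of RNA were amplified before labelling, which can widen the spread between arrays. Values normalized this way are relative and do not show total RNA per cell. No detection calls were used, and the number of arrays limits the precision. Array medians over all probe sets lay between 5.85 and 6.02, and no pair of arrays held identical values.

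The platform table gave 1 symbol for 21789 probe sets, several for 1621 (left out) and none for 12146, which left 19938 genes, 999 of them with more than 1 probe set. Symbols were checked by Entrez ID for 21698 probe sets. Technical arrays were averaged per stage. Differences were tested with limma 3.58.1 (R 4.3.3; lmFit and eBayes), with Benjamini-Hochberg adjustment over all 19938 genes and a threshold of 0.05. Treated and control arrays formed 1 fit (8 residual degrees of freedom), and treated, control and primary another (12 samples, 9 residual degrees of freedom). The script was tested on simulated data. The primary stages were compared without a test. All listed genes of the group are named, and of each related list the 3 with the largest difference and a few named after their values were seen. These genes, lists and tests were chosen with earlier results of these data known. Alternatives were a filter on the 25% dimmest genes, the mean of probe sets, 2 other scalings, another variance model, each stage or array left out, and a replicate block.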

Additional observations from a re-analysis of the deposited data

Results flagged for a closer look

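In 54 groups of 5 arrays (27 genes in treated and in control cells), the gap between an extreme array and its nearest neighbour, as a share of the range of the group, was examined, and 2 groups held an array that stood apart. Chance gives about 1 in 20. Mvd, mevalonate diphosphate decarboxylase, was lowest on treated array 1, at 6.77 with the nearest array at 6.94 and the highest at 7.00, a gap of 0.767 of the range. Ebp, the sterol isomerase, was lowest on control array 5, at 6.21 with the nearest array at 6.86 and the highest at 7.05, a gap of 0.774 of the range.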

How the results depend on the processing

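Among the 27 genes, 18 were lower in control cells than in primary neurons under every alternative that kept both primary stages, and 17 or 18 in treated cells. With E13.5 or E14.5 alone as primary, the counts were 15 and 14 in control cells and 14 and 13 in treated cells; a lone stage is assumed to vary like the iPSC-derived groups. The genes called higher numbered 2 to 4 in control cells and 3 to 5 in treated cells, with 5 when both arrays numbered 5 were left out. Over all genes, the number lower fell to 2847 (E13.5 alone) and 2743 (E14.5 alone) in control cells and to 2722 and 2622 in treated cells, and grew to 8833 and 8787 with array medians subtracted; the cause of the latter was not tested. Signs turned only for uncalled values. Scap became -0.12 (medians subtracted) and -0.064 (E14.5 alone) in control cells and 0.054 (E13.5 alone) in treated cells. Stard4 became 0.15 without both arrays numbered 5 and 0.0067 with E14.5 alone in control cells, and -0.087 (medians subtracted) and -0.084 (quantile normalized again) in treated cells. Leaving out 1 array moved Stard4 between -0.20 and 0.15 in control cells and between -0.011 and 0.26 in treated cells. Leaving out 1 technical array raised the numbers that met the rule between stages to 49 to 70 higher and 19 to 38 lower. Both the mean difference and the overlap then rest on fewer arrays, and their parts in this rise were not tested.

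Treated and control arrays share replicate numbers that the labels do not describe as pairs. Deviations from the group means correlated at 0.0448 for number 1 and at 0.520, 0.435, 0.718 and 0.798 for numbers 2 to 5. Of the 5 treated arrays, 3 correlated best with their own number. Because the labels name no pairs, the main fit did not take the numbers as pairs. Any spread shared by equal numbers therefore stays in its SE. With the replicate block, the SE of treated minus control was 0.10 for Pmvk, 0.12 for Ebp, 0.12 for Fdps and 0.10 for Lss. Without the block it was 0.15, 0.16, 0.16 and 0.12. For Mvd it was 0.12 with the block and 0.11 without. With the replicate block, 1 of all genes was higher in treated cells, 0 were lower and 0 of the 27 genes were called. At an unadjusted limma p under 0.05 the block gave 2 of the 27 genes and 834 of 19938. Without the block these numbers were 1 and 300. As a random block (correlation 0.381), the block left 18 genes lower in control and 17 in treated cells.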
